A study of Mus musculus with 33 samples.

Results

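Elastic fibre genes were examined as a set of 10 members: Eln, Fbn1, Fbn2, Mfap2, Mfap4, Mfap5, Fbln2, Fbln5, Lox and Mgp. They were taken by gene symbol from a deposited table of 52631 genes, and all 10 were found there and passed the filter on low values that 16508 genes passed. RNA had been measured by poly(A) sequencing in 33 mouse libraries, in 11 groups of 3. Embryonic stem cells of the 129S2/SvPas strain (mES) were kept on mitomycin-inactivated feeder fibroblasts with LIF and 15% serum. After plating on gelatin, they received 5 µM CHIR on top of 10 µM all-trans retinoic acid (RA/CHIR arm, described in the labels as XEN-like), or the same dose of retinoic acid alone (RA arm, described as SMC-like). CHIR commonly stands for a GSK3 blocker, which switches on Wnt signalling through beta-catenin. Both arms had 15% serum and inducers for 10 days, then 6 days of 10% serum without inducers, and were sampled at days 4, 7, 10 and 16. The end of the inducers, the change of serum and the extra days cannot be told apart. A line of extra-embryonic endoderm cells (XEN) and a line of smooth muscle cells (SMC) in 15% serum completed the groups. The labels do not say whether replicates were separate cultures, and the spread behind the p-values may be technical.

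Elastic fibres give arteries, lung and skin their recoil. Tropoelastin, the product of Eln, is deposited on microfibrils built from the fibrillins, to which microfibril-associated glycoproteins bind. Fibulin-5 helps to bring tropoelastin to the microfibril, and lysyl oxidase crosslinks it into an insoluble core. Smooth muscle cells and fibroblasts are the main makers of these proteins in the artery wall.

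All 10 members are annotated as protein-coding on GRCm38 in GENCODE M21. Eln lies on the minus strand at chr5:134702593-134747323, Fbn1 on the minus strand at chr2:125300594-125507993, Mfap2 on the plus strand at chr4:141010418-141015984 and Mfap4 on the plus strand at chr11:61485431-61488900. Mfap5 (plus strand, chr6:122505845-122529290), Fbln2 (plus strand, chr6:91212455-91272540) and Mgp (minus strand, chr6:136872435-136875823) share chromosome 6, and Fbln5 lies on the minus strand at chr12:101746565-101819055. Strand use in counting is not given in the sources used here, and 5 members overlap exons of a gene on the other strand. The overlap is 2442 bases for Fbn1 with Gm9913, which reached at most 7.01 FPKM, and 89 bases for Mfap4 with Mapk7, which reached at most 37.6 FPKM. Eln (267 bases with Gm30003), Fbn2 (129 bases with Gm26507) and Lox (30 bases with AC161119.1) overlap genes that stayed under 1 FPKM or had no entry.

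The RefSeq promoter table of GRCm38.p6, which covers 250 bases before to 50 bases after each start, held 4 members. A promoter of each is shown because Mfap2 was highest in RA-treated cells at day 16 while Fbn1, Fbln2 and Fbln5 were highest in SMC. The capitals mark matches, on either strand, to the GC box GGGCGG or to the TCF/LEF letters CTTTGA.
Mfap2, chr4:141010431-141010730, plus strand: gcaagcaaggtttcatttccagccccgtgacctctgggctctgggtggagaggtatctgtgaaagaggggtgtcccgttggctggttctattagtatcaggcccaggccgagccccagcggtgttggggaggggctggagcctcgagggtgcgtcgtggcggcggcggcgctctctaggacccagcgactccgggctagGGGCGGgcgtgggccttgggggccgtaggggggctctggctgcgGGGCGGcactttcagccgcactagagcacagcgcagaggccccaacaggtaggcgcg
Fbn1, chr2:125506389-125506688, minus strand: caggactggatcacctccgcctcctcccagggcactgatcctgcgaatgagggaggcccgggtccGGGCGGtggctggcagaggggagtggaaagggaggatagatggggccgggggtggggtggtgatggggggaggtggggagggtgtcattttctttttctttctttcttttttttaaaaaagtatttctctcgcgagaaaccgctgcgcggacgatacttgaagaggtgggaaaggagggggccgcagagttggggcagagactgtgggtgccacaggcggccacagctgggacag
Fbln2, chr6:91212514-91212813, plus strand: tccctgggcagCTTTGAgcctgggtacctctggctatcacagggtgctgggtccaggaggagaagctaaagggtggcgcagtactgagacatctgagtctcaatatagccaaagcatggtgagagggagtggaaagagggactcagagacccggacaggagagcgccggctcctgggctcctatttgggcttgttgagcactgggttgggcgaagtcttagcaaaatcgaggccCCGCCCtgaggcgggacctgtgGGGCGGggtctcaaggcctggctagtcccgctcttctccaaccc
Fbln5, chr12:101819070-101819369, minus strand: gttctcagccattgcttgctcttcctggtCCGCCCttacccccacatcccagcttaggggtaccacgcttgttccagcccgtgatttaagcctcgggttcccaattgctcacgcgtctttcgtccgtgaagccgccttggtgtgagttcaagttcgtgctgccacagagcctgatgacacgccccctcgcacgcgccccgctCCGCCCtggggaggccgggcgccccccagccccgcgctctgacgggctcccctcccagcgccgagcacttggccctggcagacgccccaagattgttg
Each of these windows held a GC box, a sequence present in 35.7% of all 32851 promoters of this length. Mfap2 carried it at -51 and -7, Fbn1 at -185, Fbln5 at -221 and -48, and Fbln2 at -16 and at 7, as counted from the start to the first base of each match, with the first transcribed base of the RefSeq entry as 1. For Fbln5 no GENCODE M21 transcript of the gene held the bases just after either RefSeq start, and the window shown lies outside the GENCODE span of the gene. The Fbln2 window also held CTTTGA at -239, a match found in 16.0% of promoters. A further start of Fbln5, at chr12:101818435-101818734, held the reverse complement of CTTTGA at -83. A further start of Mfap2, at chr4:141010174-141010473, held the reverse complement of the TEAD letters CATTCC at -176, against 14.7% of promoters with a match. Neither the CArG box, the site of serum response factor (1.63% of promoters), nor TATAAA (13.6%) was found in these windows. The share of G and C was 68.0% in the Mfap2 promoter shown, 60.3% in those of Fbn1 and Fbln2, and 65.7% in that of Fbln5, against a median of 52.7% over all promoters. The further starts of Mfap2 (52.0%) and Fbln5 (48.7%) lay below that median, and neither window held a GC box.

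Levels are in FPKM, that is, fragments scaled to transcript length and library size, and fold changes are log2 differences of FPKM + 1 with the standard error (SE) of a limma model over all 33 libraries. A gene was called higher or lower when its Benjamini-Hochberg adjusted p over all genes tested was under 0.05 and when its log2 fold change reached 1 in either direction. FPKM sums ran from 597010 to 1086371 a library, and the highest belonged to mES replicate 3, against 685294 and 675357 in the other mES libraries. Without it, the number of members called was 5 instead of 4 in RA/CHIR-4d against mES (Mfap4, at -1.01, was added), and was 7 in RA-4d against mES and 10 in SMC against mES, as with it. All 10 smooth muscle markers (Acta2, Tagln, Cnn1, Myh11, Smtn, Des, Lmod1, Mylk, Synpo2 and Actg2) averaged at least 1 FPKM both in RA-16d and in SMC. All 8 markers of extraembryonic endoderm (Gata4, Gata6, Sox17, Sox7, Foxa2, Dab2, Sparc and Lama1) did so in RA/CHIR-16d and in XEN. Being detected did not set the arms apart: all 8 endoderm markers also averaged at least 1 FPKM in RA-16d and in mES, and 8 of the 10 smooth muscle markers in RA/CHIR-16d. In bulk RNA, fewer cells of a type and less RNA per cell cannot be told apart.

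RA-16d was compared with SMC to ask how the elastic fibre programme of the retinoic acid arm relates to that of a smooth muscle line. Of the 10 members, 3 were higher and 6 lower in RA-16d, while 25.5% of all genes tested were called (15.0% higher and 10.5% lower). Fbn2, Mfap2 and Mfap4 were higher, and Fbn1, Mfap5, Fbln2, Fbln5, Lox and Mgp were lower. The median log2 fold change of the members was -1.96, against 0.06 over all genes tested. For all 10, the RA-16d and SMC libraries did not overlap, which held for 68.0% of all genes tested. RA-16d is also compared below with RA-10d and RA/CHIR-16d, so these comparisons share its 3 libraries.

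Eln, which encodes the elastic core protein, had 96.7, 163 and 127 FPKM in RA-16d, against 72.9, 76.3 and 73.4 FPKM in SMC. All RA-16d libraries lay above all SMC libraries, and the spread was wider in RA-16d (129 ± 33.01 FPKM) than in SMC (74.2 ± 1.85 FPKM; SD, n = 3 each). The log2 fold change of 0.76 ± 0.14 (SE; limma adjusted p = 2.56e-05) stayed under the minimum of 1, with a 95% interval of 0.47 to 1.04. Quantile normalization gave 1.04 and a call. Eln was thus the member whose level was nearest between RA-16d and SMC on the deposited scale, but under quantile normalization Fbln5 (-0.68) was nearer.

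The fibrillins, which form the microfibril backbone, differed in opposite directions. Fbn1, the fibrillin mutated in Marfan syndrome, had 19.5, 26.6 and 20.9 FPKM in RA-16d, against 214, 213 and 224 FPKM in SMC (log2 fold change -3.23 ± 0.09, adjusted p = 9.9e-21). Fbn2, the fibrillin that prevails in the embryo, had 12.2, 18.6 and 13.0 FPKM in RA-16d, against 1.98, 1.64 and 1.84 FPKM in SMC (2.45 ± 0.10, adjusted p = 2.24e-17). The ratio of Fbn2 to Fbn1 within a library, which a single scaling factor per library leaves as it is, was 0.627, 0.698 and 0.620 in RA-16d, against 0.00926, 0.00772 and 0.00825 in SMC. Fbn1 was the more abundant fibrillin in both groups, but by far the more so in SMC.

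The paired microfibril glycoproteins Mfap2 (MAGP-1) and Mfap5 (MAGP-2) also differed in opposite directions. Mfap2 had 185, 180.1 and 193 FPKM in RA-16d, against 16.8, 17.7 and 15.0 FPKM in SMC (log2 fold change 3.42 ± 0.18, adjusted p = 2.73e-15). Mfap5 had 14.2, 9.10 and 10.1 FPKM in RA-16d, against 982, 984 and 945 FPKM in SMC (-6.35 ± 0.19, adjusted p = 1.48e-20). The change of Mfap5 was the largest of any member in this comparison. The ratio of Mfap5 to Mfap2 was 0.0766, 0.0505 and 0.0522 in RA-16d, against 58.4, 55.8 and 63.1 in SMC. Mfap2 was the prevailing glycoprotein of the pair in every RA-16d library, and Mfap5 in every SMC library.

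Mfap4, a fibrinogen-domain protein that binds fibrillin and tropoelastin, was the most abundant member in RA-16d. It had 418, 427 and 407 FPKM there, against 29.4, 36.8 and 37.1 FPKM in SMC (log2 fold change 3.57 ± 0.25, adjusted p = 1.5e-12). By mean level it ranked within the top 1.27% of genes tested in RA-16d, against the top 20.6% in SMC.

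The fibulins were both lower in RA-16d, to unequal extents. Fbln2, a fibulin of the inner artery wall and of developing heart valves, had 68.9, 99.97 and 80.1 FPKM in RA-16d, against 4487, 4444 and 4391 FPKM in SMC (log2 fold change -5.74 ± 0.19, adjusted p = 1.14e-19). Fbln5 had 82.6, 98.9 and 81.9 FPKM in RA-16d, against 194, 181 and 186 FPKM in SMC (-1.09 ± 0.16, adjusted p = 1.74e-06). The call for Fbln5 ended under quantile normalization, at -0.68. The fibulins were thus near one another in RA-16d, with Fbln2 to Fbln5 ratios of 0.835, 1.01 and 0.978, against 23.1, 24.6 and 23.6 in SMC.

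Lox, the lysyl oxidase that crosslinks elastin and collagen, had 128, 161 and 131 FPKM in RA-16d, against 2399.7, 2302 and 2314 FPKM in SMC (log2 fold change -4.06 ± 0.17). Mgp, matrix Gla protein, an inhibitor of calcification in the artery wall, had 318, 243 and 259 FPKM in RA-16d, against 1894, 1988 and 1944 FPKM in SMC (-2.83 ± 0.39). Both were lower with no overlap, at adjusted p of 1.35e-17 for Lox and 3.88e-07 for Mgp. Per elastin transcript, RA-16d had 1.32, 0.987 and 1.03 of Lox, against 32.9, 30.2 and 31.5 in SMC. Eln and Lox were thus about equally abundant in RA-16d, while Lox exceeded Eln in every SMC library.

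**Figure D1:**
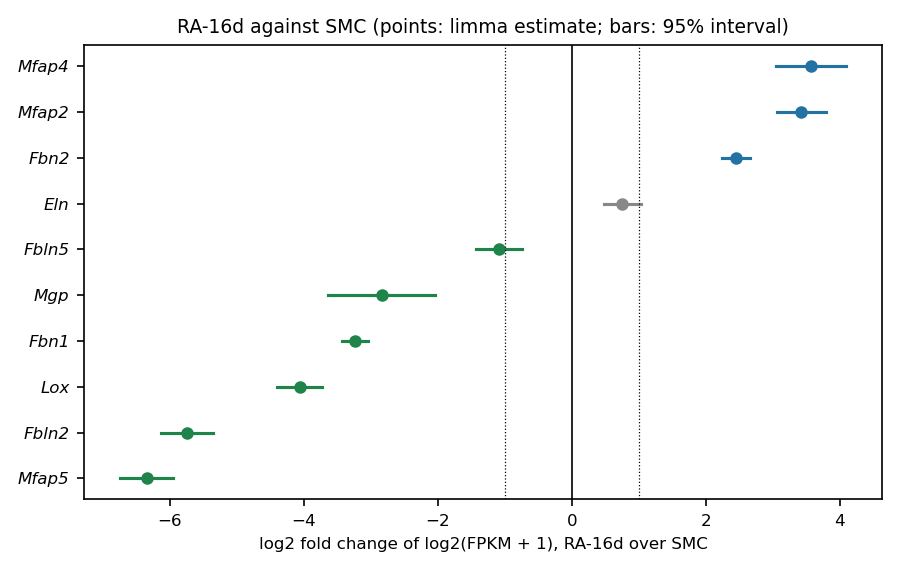
Log2 fold change of FPKM + 1, RA-16d over SMC, for the 10 elastic fibre genes, as limma estimates (points) with 95% intervals (bars). Blue marks genes called higher in RA-16d, green genes called lower and grey no call; the dotted lines stand at -1 and 1. Mfap4 (3.57), Mfap2 (3.42) and Fbn2 (2.45) lie to the right, Mfap5 (-6.35) and Fbln2 (-5.74) farthest to the left, and Eln (0.76) is the gene without a call.

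Summed over the 10 members, libraries held 1322 to 1426 FPKM in RA-16d, against 10130.5 to 10292 FPKM in SMC. The make-up of the sum differed as well. In RA-16d, Mfap4 took 30.6% ± 0.612 of it, Mgp 20.1% ± 3.35, Mfap2 13.7% ± 0.989, Lox 10.2% ± 0.917 and Eln 9.40% ± 2.11 (SD, n = 3). In SMC, Fbln2 took 43.4% ± 0.137, Lox 22.9% ± 0.423, Mgp 19.0% ± 0.526 and Mfap5 9.49% ± 0.147, while Eln had 0.726% ± 0.0185 (SD, n = 3). The shares of Mgp differed by less than the spread in RA-16d. Lox was also among the leading genes of both sums, while Mfap4 had the largest share in RA-16d and Fbln2 in SMC. The summed level of the 8 fibroblast markers (Col1a1, Col1a2, Col3a1, Thy1, Dcn, Lum, Postn and Pdgfrb) was 2934 to 3621 FPKM in RA-16d, against 11832 to 12160 FPKM in SMC, and all 8 averaged at least 1 FPKM in both. By mean, Dcn (789 FPKM in RA-16d, 134 FPKM in SMC) and Lum (133 and 20.2 FPKM) were higher in RA-16d, and the other fibroblast markers were lower. The 10 smooth muscle markers summed to 9051 to 10430 FPKM in RA-16d, against 18708 to 19376 FPKM in SMC. Acta2 (means of 3683 FPKM in RA-16d and 11435 FPKM in SMC) and Tagln (3085 and 5437 FPKM) made up most of this sum. By mean, Acta2, Tagln and Lmod1 were lower in RA-16d, and Cnn1, Myh11, Smtn, Des, Mylk, Synpo2 and Actg2 were higher. The 4 mesothelial markers (Wt1, Upk3b, Msln and Upk1b) summed to 250.3 to 276 FPKM in RA-16d, against 6.99 to 8.05 FPKM in SMC. Their part in the differences between the members was not tested. Of the 6 cartilage markers, with which Mgp is often found, 1 averaged at least 1 FPKM in RA-16d, against 3 in SMC, and their sum stayed at 4.15 to 5.99 FPKM in RA-16d, against 7.20 to 7.56 FPKM in SMC.

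**Figure D2:**
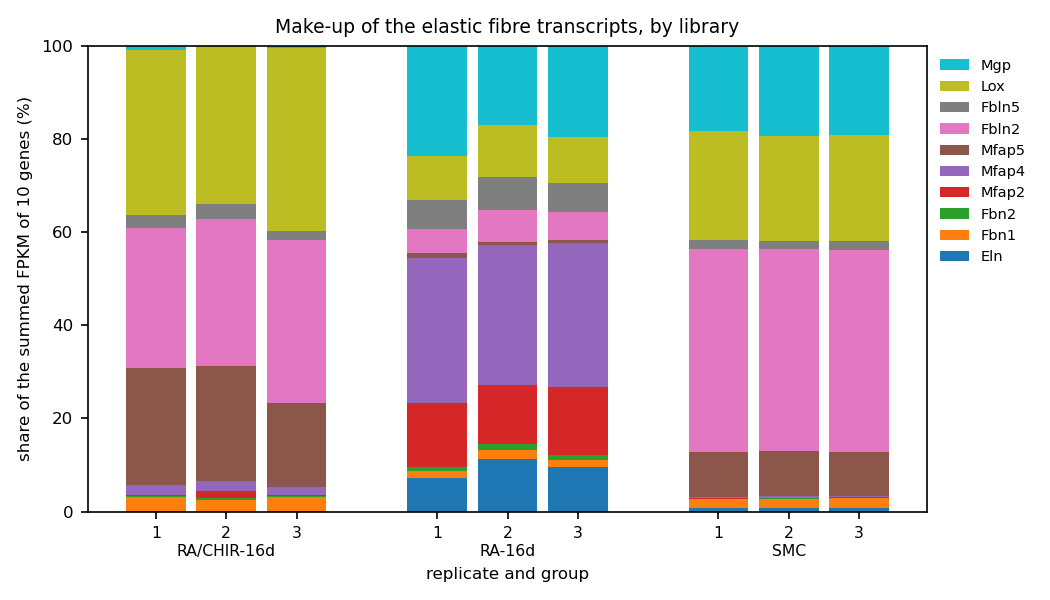
Share of the summed FPKM of the 10 elastic fibre genes (%) that each gene takes, in each of the 3 libraries of RA/CHIR-16d, RA-16d and SMC (stacked bars, 1 colour a gene). Mfap4, Mgp and Mfap2 lead in RA-16d, Fbln2, Lox and Mgp in SMC, and Lox (36.2%), Fbln2 (32.1%) and Mfap5 (22.7%) in RA/CHIR-16d.

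Over the RA time course, some members were already higher at day 4 and others rose mainly after day 10. Mfap2, Mfap4 and Mfap5 were called higher at both steps. Mfap5 averaged 8.65 FPKM at day 4, 3.53 FPKM at day 10 and 11.1 FPKM at day 16. At day 4, Fbn2, Mfap2, Mfap4 and Mfap5 were higher than in mES (log2 fold change 2.70 ± 0.10, 2.70 ± 0.18, 2.35 ± 0.25 and 1.81 ± 0.19), and Fbln2, Lox and Mgp were lower (-2.34 ± 0.19, -1.44 ± 0.17 and -2.14 ± 0.39), against 23.4% of all genes called in that comparison. Fbn2 had 5.65, 5.90 and 5.96 FPKM at day 4, against 0.0685, 0.0180 and 0.0741 FPKM in mES. Mfap2 had 17.7, 13.9 and 15.4 FPKM at day 4, against 1.16, 1.999 and 1.60 FPKM in mES. These microfibril genes were thus called higher at a day when Eln was not; with a pseudocount of 0.1, Eln was called lower at day 4 than in mES (-1.40). Eln averaged 0.415 ± 0.232 FPKM in mES, 0.0794 at day 4, 0.168 at day 7, 0.999 ± 0.359 at day 10 and 129 ± 33.01 at day 16 (SD, n = 3 each). The Fbn2 to Fbn1 ratio was 2.37 to 3.07 at day 4, 1.75 to 1.88 at day 7, 1.44 to 1.73 at day 10 and 0.620 to 0.698 at day 16. In mES this ratio was 0.0859, 0.0249 and 0.0899. Fbn2 was thus the more abundant fibrillin from day 4 to day 10, and Fbn1 in mES and at day 16.

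The middle of the RA arm brought few calls. Between day 4 and day 7, Fbln2 was the member that passed (log2 fold change 1.84 ± 0.19; 1 of 10, against 4.81% of all genes called and 2.77% called higher), and the count was 2 without RA-4d replicate 1 or RA-7d replicate 3, where Mfap2 joined, or without RA-4d replicate 3, where Fbln5 did. Fbln2 had 12.6, 13.6 and 12.0 FPKM at day 7, against 4.39, 2.93 and 1.63 FPKM at day 4. Between day 7 and day 10, Mfap4 (1.12 ± 0.25), Fbln5 (1.80 ± 0.16) and Mgp (2.06 ± 0.39) rose, against 1.99% of all genes called and 1.16% called higher. The calls of Mfap4 and Mgp ended with a pseudocount of 0.1 (adjusted p = 0.226 and 0.0522), while Eln, at 0.76 with a pseudocount of 1, gained one (2.05, adjusted p = 4.79e-05). Fbln5 had 11.1, 10.6 and 9.41 FPKM at day 10, against 2.35, 2.29 and 2.17 FPKM at day 7.

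From day 10 to day 16, after the inducers were taken away, 9 of the 10 members rose in the RA arm, against 9.17% of all genes called (7.37% higher). The median log2 fold change was 2.72 for the members and 0.01 over all genes tested. Eln rose the most, to 96.7, 163 and 127 FPKM at day 16, against 0.997, 1.36 and 0.641 FPKM at day 10 (6.00 ± 0.14, adjusted p = 4.34e-22). Lox followed, with 128, 161 and 131 FPKM at day 16, against 1.99, 2.67 and 2.15 FPKM at day 10 (5.43 ± 0.17). Mgp had 318, 243 and 259 FPKM at day 16, against 4.99, 7.01 and 9.42 FPKM at day 10 (5.10 ± 0.39). These 3 genes, for the core protein, its crosslinker and the calcification inhibitor, thus had the largest increases of the set. Mfap4 (3.75 ± 0.25), Fbln5 (2.96 ± 0.16), Fbln2 (2.47 ± 0.19), Mfap2 (1.86 ± 0.18), Fbn1 (1.83 ± 0.09) and Mfap5 (1.41 ± 0.19) rose less. Fbn2 had 12.2, 18.6 and 13.0 FPKM at day 16, against 8.78, 8.25 and 8.54 FPKM at day 10, a log2 fold change of 0.69 ± 0.10 without a call. For all 10 members every day 16 library lay above every day 10 library; over all genes tested, 48.0% did not overlap in either direction. Over the same step, all 8 fibroblast markers and all 10 smooth muscle markers were called higher, and the fibroblast marker sum was 2934 to 3621 FPKM at day 16, against 207 to 223 FPKM at day 10; their part was not tested.

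**Figure D3:**
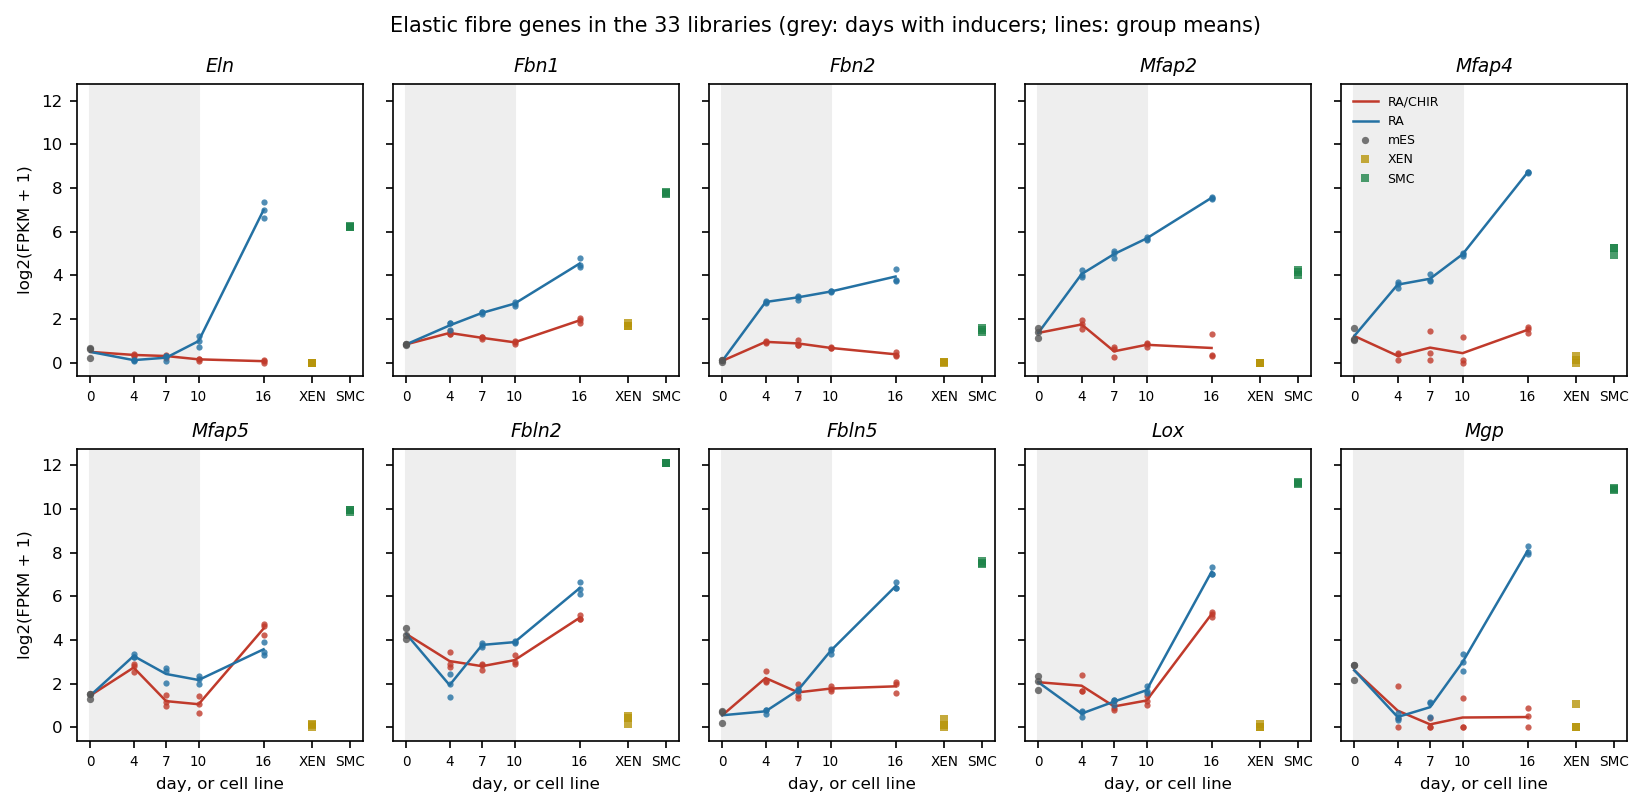
Level of each elastic fibre gene as log2(FPKM + 1), by day in the RA/CHIR (red) and RA (blue) arms from the shared mES start at 0, and in XEN and SMC. Points are single libraries, lines join group means and grey marks the days with inducers. Eln, Lox and Mgp climb in the RA arm mainly after day 10, while Fbn2, Mfap2 and Mfap4 are already raised at day 4 in that arm.

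The RA/CHIR arm had lower levels of nearly the whole set by day 16. At that day, 9 of 10 members were lower than in RA-16d and none was called higher, against 21.3% of all genes called (12.9% lower). The median log2 fold change was -4.08, against -0.01 over all genes tested. Eln was listed at 0.0556, 0 and 0.0759 FPKM in RA/CHIR-16d, against 96.7, 163 and 127 FPKM in RA-16d (-6.93 ± 0.14, adjusted p = 6.29e-24). Mgp was listed at 0.874, 0 and 0.426 FPKM in RA/CHIR-16d, against 318, 243 and 259 FPKM in RA-16d (-7.62 ± 0.39). Mfap4 had 2.07, 1.88 and 1.54 FPKM in RA/CHIR-16d, against 418, 427 and 407 FPKM in RA-16d (-7.21 ± 0.25). Together with Mfap2, at 0.280, 1.51 and 0.244 FPKM in RA/CHIR-16d (-6.88 ± 0.18), these genes were near the floor of the table in RA/CHIR-16d, where the pseudocount of 1 understates a change. Fbln5 (-4.59 ± 0.16), Fbn2 (-3.56 ± 0.10) and Fbn1 (-2.60 ± 0.09) were also lower.

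Lox, Fbln2 and Mfap5 were the members that averaged over 10 FPKM in RA/CHIR-16d. Lox had 35.6, 32.8 and 38.2 FPKM in RA/CHIR-16d, against 128, 161 and 131 FPKM in RA-16d (log2 fold change -1.94 ± 0.17, adjusted p = 9.62e-11). Fbln2 had 30.1, 30.5 and 33.9 FPKM in RA/CHIR-16d, against 68.9, 99.97 and 80.1 FPKM in RA-16d (-1.36 ± 0.19, adjusted p = 5.93e-07). Mfap5 was not lower, with 25.4, 23.8 and 17.7 FPKM in RA/CHIR-16d, against 14.2, 9.10 and 10.1 FPKM in RA-16d, and no overlap between the groups, as for all 10 members and 62.9% of all genes tested. Its log2 fold change of 0.95 ± 0.19 (adjusted p = 9.43e-05) was just under the minimum of 1, and passed it with factors of the TMM kind (1.04), quantile normalization (1.02), a pseudocount of 0.1 (1.01), without RA-16d replicate 1 (1.13) and without RA/CHIR-16d replicate 3 (1.10). The Mfap5 to Mfap2 ratio was 90.6, 15.8 and 72.7 in RA/CHIR-16d, against 0.0766, 0.0505 and 0.0522 in RA-16d. With Mfap2 at 0.280, 1.51 and 0.244 FPKM in RA/CHIR-16d, near the floor, its size there has no stated precision. Summed over the members, libraries held 96.5 to 101 FPKM in RA/CHIR-16d, against 1322 to 1426 FPKM in RA-16d. The fibroblast marker sum was 431 to 469 FPKM in RA/CHIR-16d, against 2934 to 3621 FPKM in RA-16d, and the smooth muscle marker sum 469 to 485 FPKM in RA/CHIR-16d, against 9051 to 10430 FPKM in RA-16d. Pluripotency markers (Pou5f1, Nanog, Zfp42, Sox2 and Esrrb) summed to 178 to 188 FPKM in RA/CHIR-16d, against 7.55 to 9.68 FPKM in RA-16d. All 8 endoderm markers were called higher in RA/CHIR-16d, against 1389 of the 16508 genes tested. Their sums were 10469 to 10973 FPKM in RA/CHIR-16d, against 3138 to 3212 FPKM in RA-16d. Sparc made up most of these sums (means of 8814 FPKM in RA/CHIR-16d and 2744 FPKM in RA-16d), and also averaged 7107 FPKM in SMC. Of the 4 mesothelial markers, 3 (Wt1, Upk3b and Upk1b) were called lower in RA/CHIR-16d. The 4 summed to 35.9 to 36.7 FPKM in RA/CHIR-16d, against 250.3 to 276 FPKM in RA-16d. Msln made up most of the RA/CHIR-16d sum, with a mean of 32.6 FPKM there, against 21.2 FPKM in RA-16d (0.61, no call). The part of these markers in the differences was not tested.

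**Figure D4:**
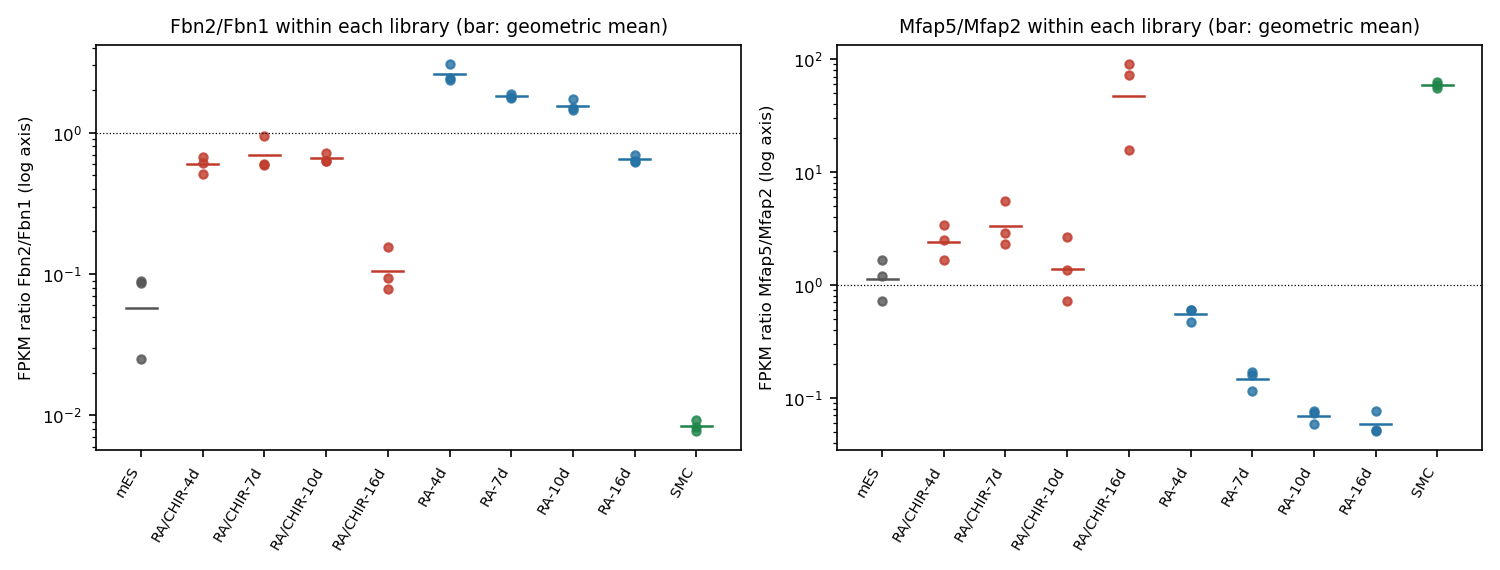
Ratio of Fbn2 to Fbn1 (left) and of Mfap5 to Mfap2 (right) within each library, on log axes, in mES, in the RA/CHIR and RA arms by day, and in SMC; bars are geometric means and the dotted line marks equal levels. The Fbn2 to Fbn1 ratio lies above 1 in the RA arm up to day 10, and the Mfap5 to Mfap2 ratio lies below 1 throughout the RA arm but at 55.8 to 63.1 in SMC. From day 7 of RA/CHIR, Mfap2 averaged under 1 FPKM, so the ratio on the right has no stated precision there.

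By day 4 the arms had parted for some members, in both directions. At day 4, Fbn2 (log2 fold change -1.83 ± 0.10), Mfap2 (-2.31 ± 0.18) and Mfap4 (-3.26 ± 0.25) were lower in RA/CHIR than in RA, and Fbln2 (1.10 ± 0.19), Fbln5 (1.53 ± 0.16) and Lox (1.28 ± 0.17) were higher, against 7.63% of all genes called. The microfibril genes Fbn1 (-0.345) and Mfap5 (-0.53) stayed under the minimum fold change at day 4 and were not called. Fbln5 had 5.05, 3.22 and 3.30 FPKM in RA/CHIR-4d, against 0.535, 0.715 and 0.750 FPKM in RA-4d. Lox had 4.21, 2.19 and 2.19 FPKM in RA/CHIR-4d, against 0.622, 0.667 and 0.373 FPKM in RA-4d. Fbln5 and Lox thus started higher in the arm in which they ended lower. The call of Fbln2 at day 4 ended without RA-4d replicate 3 (0.83) or without RA/CHIR-4d replicate 1 (0.90).

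At day 7, Fbn1 (-1.14 ± 0.09), Fbn2 (-2.11 ± 0.10), Mfap2 (-4.46 ± 0.18), Mfap4 (-3.16 ± 0.25) and Mfap5 (-1.24 ± 0.19) were lower in RA/CHIR, against 10.7% of all genes called and 6.61% called lower. Fbln2, at -0.97 ± 0.19, was just short of a call at day 7, and passed without RA-7d replicate 3 (-1.01), RA/CHIR-7d replicate 1 (-1.001) or RA/CHIR-7d replicate 2 (-1.03). By day 10, 7 of 10 were lower, against 15.4% of all genes called and 9.07% called lower: those of day 7 with Fbln5 (-1.73 ± 0.16) and Mgp (-2.54 ± 0.39). Mfap2 had 0.836, 0.643 and 0.792 FPKM in RA/CHIR-10d, against 49.7, 53.3 and 48.6 FPKM in RA-10d (-4.87 ± 0.18). The day 10 call of Mfap5 (-1.11 ± 0.19) ended under quantile normalization (-0.97) and without RA/CHIR-10d replicate 3 (-0.91). Eln, at -0.84 ± 0.14, was not called at day 10, when its mean was 0.106 FPKM in RA/CHIR-10d and 0.999 FPKM in RA-10d. With a pseudocount of 0.1 it was called lower there (-2.39, adjusted p = 9.07e-07).

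Within the RA/CHIR arm, the late rise covered part of the set. At day 4, Mfap5 (1.28 ± 0.19) and Fbln5 (1.71 ± 0.16) were higher than in mES and Fbln2 (-1.24 ± 0.19) and Mgp (-1.85 ± 0.39) lower, against 18.2% of all genes. Fbn2 (0.87) and Mfap4 (-0.91) were under the minimum there. With a pseudocount of 0.1, Fbn2 was called higher (2.76) and Mfap4 lower (-2.15). Mfap2 (-1.23 ± 0.18) and Mfap5 (-1.54 ± 0.19) fell between day 4 and day 7 (2 of 10), against 2.72% of all genes called and 1.62% called lower. Lox, at -0.95, was just short of a call in that step. It passed without RA/CHIR-4d replicate 2 (-1.07) or replicate 3 (-1.07), without RA/CHIR-7d replicate 3 (-1.07), and with a pseudocount of 0.1 (-1.45). Between day 7 and day 10, limma called 0 members, against 1.07% of all genes called. At an unadjusted p under 0.05 the count was 1, Fbn1 (-0.21 ± 0.09). From day 10 to day 16, Lox (3.96 ± 0.17), Mfap5 (3.47 ± 0.19), Fbln2 (1.94 ± 0.19), Mfap4 (1.07 ± 0.25) and Fbn1 (1.01 ± 0.09) rose, against 14.8% of all genes called and 8.47% called higher. Lox had 35.6, 32.8 and 38.2 FPKM at day 16, against 1.69, 1.34 and 1.05 FPKM at day 10. Mfap5 had 25.4, 23.8 and 17.7 FPKM at day 16, against 1.12, 1.71 and 0.573 FPKM at day 10. The count was 3 without RA/CHIR-10d replicate 1, where Fbn1 (0.97) and Mfap4 (0.85) lost their calls. Mfap4 was also under the minimum without RA/CHIR-10d replicate 3 (0.91), and Fbn1 under quantile normalization (0.99) and without RA/CHIR-16d replicate 1 (0.96) or replicate 3 (0.99). Over this step 7 of the 8 fibroblast markers were called higher, and their sum was 431 to 469 FPKM at day 16, against 27.1 to 28.1 FPKM at day 10; their part was not tested.

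The difference between the arms in this last step was tested as an interaction, the RA/CHIR change minus the RA change. It was called for 7 members, against 14.8% of all genes. The change was smaller in RA/CHIR for Eln (-6.09 ± 0.19, adjusted p = 1.22e-18), Mgp (-5.08 ± 0.55), Fbln5 (-2.86 ± 0.23), Mfap4 (-2.68 ± 0.36), Mfap2 (-2.01 ± 0.25) and Lox (-1.47 ± 0.23). It was larger in RA/CHIR for Mfap5 (2.06 ± 0.27, adjusted p = 5.33e-07). Eln changed by -0.08 ± 0.14 in RA/CHIR and by 6.00 ± 0.14 in RA, and Fbln5 by 0.10 ± 0.16 in RA/CHIR and by 2.96 ± 0.16 in RA. No call was made for the interaction of Fbn1 (-0.83 ± 0.13), Fbn2 (-0.98 ± 0.14) or Fbln2 (-0.53 ± 0.27). That of Fbn2 passed without RA-16d replicate 1 (-1.09) or replicate 3 (-1.05), without RA/CHIR-16d replicate 2 (-1.03), without RA-10d replicate 1 (-1.001), and with a pseudocount of 0.1 (-1.55). The interaction of Mfap4 lost its call with a pseudocount of 0.1 (-1.07, adjusted p = 0.394).

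**Figure D5:**
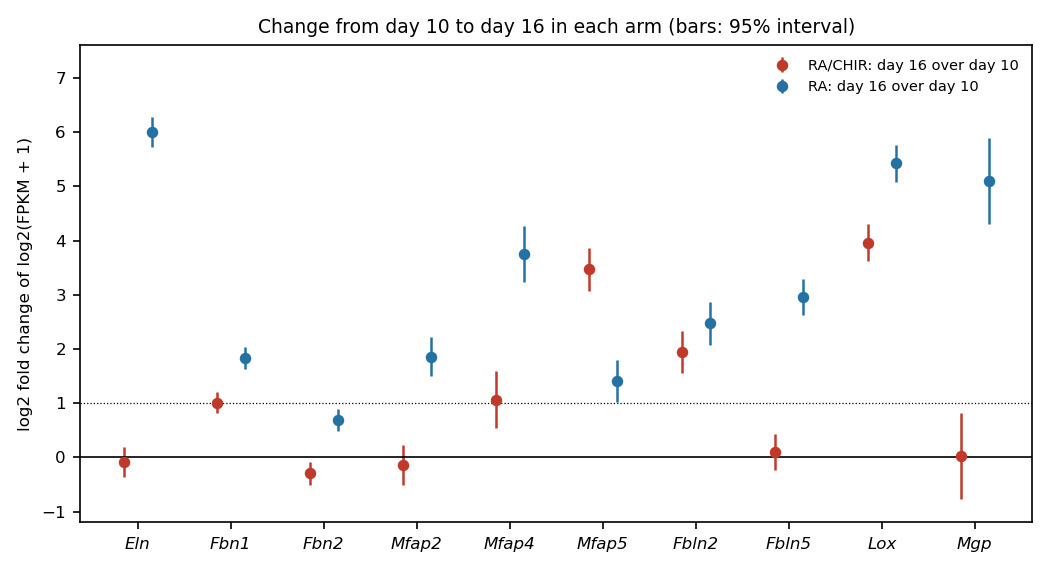
Log2 fold change of FPKM + 1 from day 10 to day 16 for each elastic fibre gene in the RA/CHIR arm (red) and the RA arm (blue), as limma estimates with 95% intervals; the dotted line stands at 1. Eln (-0.08 in RA/CHIR, 6.00 in RA) and Mgp (0.02 in RA/CHIR, 5.10 in RA) are farthest apart, and Mfap5 (3.47 in RA/CHIR, 1.41 in RA) is the gene with the larger change in RA/CHIR.

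In the XEN line the set was almost silent. Fbn1, at 2.47, 2.18 and 2.24 FPKM, was the one member that averaged at least 1 FPKM, and Eln and Mfap2 were listed at 0 in all 3 XEN libraries. Summed over the members, libraries held 2.66 to 4.04 FPKM in XEN, against 10130.5 to 10292 FPKM in SMC. All 10 were called lower in XEN, against 29.7% of all genes called and 17.2% called lower. RA/CHIR-16d exceeded XEN for Lox (5.12 ± 0.17), Fbln2 (4.66 ± 0.19), Mfap5 (4.44 ± 0.19), Fbln5 (1.72 ± 0.16) and Mfap4 (1.35 ± 0.25), against 23.2% of all genes called and 14.5% called higher. The call of Mfap4 ended under quantile normalization (0.90), where the median of all genes moved by -0.15. The fibroblast marker sum was 431 to 469 FPKM in RA/CHIR-16d, against 1.34 to 1.62 FPKM in XEN; its part was not tested.

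All 10 members were higher in SMC than in mES, against 43.2% of all genes called and 21.0% called higher, from a log2 fold change of 1.42 ± 0.10 for Fbn2 to 9.12 ± 0.17 for Lox. In mES the highest members were Fbln2 (17.9, 15.6 and 22.2 FPKM), Mgp (6.16, 3.43 and 6.27 FPKM) and Lox (2.27, 3.37 and 4.16 FPKM), and these were the ones lower at day 4 of RA. Of the 8 fibroblast markers, 2 were called higher and 3 lower in RA-4d than in mES, against 23.4% of all genes called. The mES cells were grown on feeder fibroblasts. Thy1 and Col1a2 averaged 0.822 and 2.56 FPKM in RA-4d, against 17.0 and 8.97 FPKM in mES, while Col3a1 and Dcn averaged 16.0 and 3.68 FPKM in RA-4d, against 1.74 and 0.804 FPKM in mES. The fibroblast marker sum was 30.6 to 32.5 FPKM in RA-4d, against 38.6 to 65.0 FPKM in mES, and its part in the day 4 decreases was not tested.

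Ordered by mean level over the 11 groups, Fbn1, Mfap5, Fbln2, Fbln5, Lox and Mgp were highest in SMC, and Eln, Fbn2, Mfap2 and Mfap4 in RA-16d. The highest group was the same under both other scalings. For Eln the order was RA-16d, SMC and RA-10d, each without overlap with the next, and the other groups stayed under 1 FPKM with overlapping neighbours down to the 0 of XEN. For Fbn2 the 4 RA groups led, by descending day, ahead of SMC, each without overlap. For Mfap2 the libraries of SMC and RA-4d overlapped, and for Mfap4 those of SMC and RA-10d. In SMC, Fbln2 ranked within the top 0.127% of genes tested, Lox within 0.273%, Mgp within 0.37% and Mfap5 within 0.824%.

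Across the 11 group means of log2(FPKM + 1), which share libraries among genes, the genes nearest to each member by Pearson's r were looked up among 11664 others. Those nearest to Eln were Aspn (asporin, r = 0.991), Fmod (fibromodulin, 0.984) and Npas4 (0.983). Col1a2, a chain of type I collagen, was nearest to Lox (0.992), followed by Ccl2 and Inhba. P2ry6, Fmo2 and Tmem45a were nearest to Mgp (0.980 to 0.992), and Bdnf, Fabp4 and Cavin2 to Fbn1 (0.985 to 0.987). Fbn2 ran nearest to Tbx2 (0.975), Aldh1a2, which makes retinoic acid (0.972), and Ednra (0.971). Mfap2 was matched by Enho, Gnao1 and Zc4h2 (0.955 to 0.976), Mfap4 by Gdpd2, Rarres2 and Gal3st4 (0.957 to 0.966), and Mfap5 by Pcdh19, Ptx3 and Mapre1 (0.974 to 0.981). Prkaa1, Adm and Col5a2 were nearest to Fbln2 (0.966 to 0.972), and Col16a1, Prnp and Pcdh7 to Fbln5 (0.980 to 0.984). Within the set, Eln ran nearest to Mgp (0.955), Fbn2 to Mfap2 (0.952), Mfap4 to Mfap2 (0.950), Fbln2 to Lox (0.952) and Mfap5 to Fbln2 (0.912).

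Of 20 further genes of elastic fibre assembly (other fibulins, latent TGF-beta binding proteins, emilins, Mmrn2, ADAMTS and ADAMTS-like proteins, versican and fibronectin), 18 were tested. In RA-16d against SMC, 3 were higher and 5 lower, against 25.5% of all genes called (15.0% higher and 10.5% lower). Their median log2 fold change was -0.09. Those higher were Thsd4 (3.66 ± 0.18), an ADAMTS-like protein of microfibrils, Fbln1 (2.92 ± 0.06) and Vcan (1.03 ± 0.12), and the largest decreases were those of Emilin2 (-3.86 ± 0.12), Ltbp2 (-3.22 ± 0.19) and Efemp2 (-2.45 ± 0.08), the fibulin-4 gene. In RA/CHIR-16d against RA-16d, 12 were lower and none higher, with a median of -2.03, against 21.3% of all genes called (12.9% lower). The decreases were led by Emilin1 (-3.59 ± 0.21), Thsd4 (-3.21 ± 0.18), Ltbp2 (-3.01 ± 0.19) and Ltbp3 (-2.996 ± 0.09). From day 10 to day 16 of RA, 9 were higher and none lower, with a median of 0.999, against 9.17% of all genes called (7.37% higher).

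Of 7 crosslinking genes, 5 were lower in RA-16d than in SMC and none higher, with a median of -1.58, against 10.5% of all genes called lower. They were Loxl4 (-4.08 ± 0.13), Loxl3 (-3.84 ± 0.23), Bmp1 (-1.998 ± 0.08), whose protease activates lysyl oxidase, Loxl1 (-1.58 ± 0.08) and Loxl2 (-1.11 ± 0.08). In RA/CHIR-16d against RA-16d, Loxl1 (-4.14 ± 0.08), Tgm2 (-3.85 ± 0.13) and Loxl3 (-2.65 ± 0.23) were lower and none was higher, with a median of -0.95. In that comparison 12.9% of all genes were called lower. Loxl1, the paralogue needed to maintain elastic fibres in mice, averaged 5.11 FPKM in RA/CHIR-16d, 107 FPKM in RA-16d and 321 FPKM in SMC. From day 10 to day 16 of RA, 3 crosslinking genes were higher and none lower, with a median of 0.82, against 7.37% of all genes called higher.

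Of 10 TGF-beta ligands, receptors and response genes, 1 was higher and 3 were lower in RA-16d than in SMC, with a median of -0.17. In that comparison 25.5% of all genes were called (15.0% higher and 10.5% lower). Tgfbi was higher (5.33 ± 0.07), and Tgfb1 (-1.38 ± 0.15) and Smad7 (-1.29 ± 0.11) were among the lower ones. The response genes Tgfbi and Smad7 thus differed in opposite directions. Tgfb3 (-5.65 ± 0.10), Tgfbi (-3.75 ± 0.07), Tgfb2 (-2.17 ± 0.12) and Tgfb1 were lower and the receptor genes Tgfbr3 (1.07 ± 0.09) and Tgfbr2 higher in RA/CHIR-16d than in RA-16d, with a median of -0.80. Of 9 elastin-degrading enzymes, 5 were tested. Mmp2, gelatinase A (1.92 ± 0.14), was higher and Ctsk, cathepsin K (-6.42 ± 0.21), and Mmp14 (-1.32 ± 0.10) lower in RA-16d than in SMC, with a median of -0.65. Ctsl (2.21 ± 0.09) was higher and Mmp2 (-5.10 ± 0.14) and Mmp14 (-2.35 ± 0.10) were lower in RA/CHIR-16d than in RA-16d, with a median of 0.33. Between these 2 groups 21.3% of all genes were called (12.9% lower). From day 10 to day 16 of RA, 5 of the TGF-beta genes and 2 of the degrading enzymes were higher and none lower, with medians of 0.89 and 0.44. Over that step 7.37% of all genes were called higher. All these lists were chosen with earlier results of these data known, so their counts stand as descriptions beside the shares of all genes called.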

How the data were processed

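Poly(A) libraries were read as paired 150 bp reads, planned at about 25M a library, per the labels' protocols. Per the submitters' processing notes, the tools were Cufflinks, Cuffdiff, HISAT2 2.0.4 and Trimmomatic 0.33, with the build GRCm38 and no parameters given. The authors deposited FPKM for 52631 genes in 33 columns. Fragment counts are not used here, so the depth behind each value is unknown and no counting interval is given. A listed 0 may be a failed estimate.

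Values were analysed as deposited, on the scale of log2(FPKM + 1). Genes had to reach 1 FPKM in 3 or more libraries, which left 16508. These were fitted with limma 3.58.1 (R 4.3.3) as 11 group means, with the spread shared by all 33 libraries and a mean-dependent prior (22 residual and 3.05 prior degrees of freedom). Two-sided p-values were adjusted over all genes within each of 17 comparisons. The fit was tested on simulated data for RA-16d against SMC alone, with independent noise at the observed spread. Changes were planted only in genes well above the floor, so levels near 0 and replicates that may be technical were not covered. Level errors are SD of FPKM. No pair of libraries held identical values. Alternatives were quantile normalization or TMM-like factors between libraries, 0.1 as pseudocount, looser and stricter filters, fitting the compared groups alone, no trend, the replicate number as a block, each library left out, and calls without a minimum fold change.

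All 10 members are named. From each further list, up to 4 called genes with the largest change in RA-16d against SMC and in RA/CHIR-16d against RA-16d are named; others of a list were added after their values were seen, and 1 gene is not reported here. For each member, the 3 nearest other genes over the group means were taken among those with at least 5 FPKM in the highest group, passing over Gm and Rik names and shared symbols. The members and lists were chosen with earlier results of these data known. Coordinates come from GENCODE M21 and promoters from RefSeq. Figures used matplotlib 3.10.9 in Python 3.11.15.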

Additional observations from a re-analysis of the deposited data

Results flagged for a closer look

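For 7 members the change from day 10 to day 16 differed between the arms by the test of the difference itself (limma interaction, RA/CHIR change minus RA change, 3 libraries in each of 4 groups). The differences on the log2 scale were -6.09 for Eln, -5.08 for Mgp, -2.86 for Fbln5, -2.68 for Mfap4, -2.01 for Mfap2, -1.47 for Lox and 2.06 for Mfap5. Mfap5 was the one with the larger increase in RA/CHIR. Groups of 3 libraries were not searched for single deviating samples.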

How the results depend on the processing

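No member changed direction against a call under any of the alternatives. Of 1530 log2 fold changes of members under other settings, 1475 kept their call status, 7 lost a call and 48 gained one; of 1080 with a library left out, 1056, 8 and 16 did so. The number of members called in RA-7d against RA-4d was 1, and was 3 with a pseudocount of 0.1, 6 by adjusted p alone, and 1 to 2 with a library left out. By adjusted p alone it was 7 instead of 3 in RA-10d against RA-7d, 7 instead of 4 in RA/CHIR-4d against mES, and 4 instead of 2 in RA/CHIR-7d against RA/CHIR-4d. In RA/CHIR-16d against RA/CHIR-10d it was 5, and 3 to 5 with a library left out. With factors of the TMM kind, the RA-16d means were 176 FPKM for Mfap2 and 395 FPKM for Mfap4. Quantile normalization gave 392 FPKM for Mfap4 in RA-16d and, in SMC, 158 for Fbn1, 586 for Mfap5, 2799 for Fbln2, 138.0 for Fbln5, 1577 for Lox and 1297 for Mgp. It also moved the split of all called genes in RA-16d against RA-10d to 1031 higher and 444 lower, against 1217 and 297, and in RA/CHIR-16d against XEN to 1789 higher and 1764 lower, against 2396 and 1426. A pseudocount of 0.1 raised the count of all genes called by over 1.5 times in 9 comparisons, such as 2192 against 1259 in RA/CHIR-4d against RA-4d and 2339 against 1514 in RA-16d against RA-10d, and adjusted p alone did so in all 17. The cause of these shifts was not tested. With the replicate number as a block, 9 members were called in RA-16d against SMC, 9 in RA/CHIR-16d against RA-16d and 9 in RA-16d against RA-10d, and it changed no call of a member. Same-numbered libraries did not deviate together: in 0 of 16 comparisons did every pair correlate above 0.1, and the correlations ran from -0.11 to 0.109 with a median of -0.002. Without counts, levels near 0 have no stated precision, and fold changes of genes under about 1 FPKM depend on the pseudocount.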
